A study of Rattus norvegicus with 6 samples.

Results

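The transcript levels of 8 classical genes of the DNA damage and stress response, Mdm2, Cdkn1a, Ccng1, Gadd45a, Sesn2, Phlda3, Fas and Perp, were examined gene by gene in the rat jejunum. They act in growth arrest, repair and cell death, and were found through the RefSeq accession of each probe. They were covered by 12 of the 41012 probes, and they are 8 of the 13837 genes that could be named. The jejunum came from male Sprague-Dawley rats of 6 weeks. Control rats were housed at 25°C, and rats of the S3d group spent 2 h on each of 3 days at 35°C under vibration at 0.1 g. RNA of 3 rats was pooled for each sample, and each group had 3 samples, each on 1 one-colour Agilent array. The labels give 10 rats per group and do not say whether its pools held different rats. The methods give fewer, too few for 3 pools of 3 different rats, so that some pools may share rats. Thus the p-values measure only the spread between these samples.

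Damaged DNA and other stresses raise a set of genes that stop the cell cycle, help to repair DNA, or start cell death. Some members of this set also act as feedback inhibitors of the response, such as the ubiquitin ligase Mdm2. Part of the control lies at the protein level, which arrays of RNA do not measure. In the gut, the dividing cells of the crypt are a well known site of arrest and death after irradiation.

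The rats of the S3d group were heated, so the promoter windows of the 8 genes were searched for the core of the heat shock element, GAANNTTC, which the heat shock factors bind. The windows are those of the RefSeq table (assembly GRCr8), from 250 bases before to 50 bases after the start of the gene, and all 8 genes had one. The core reads the same on both strands, so that each match counts once for both, and no matches overlapped. It was found in 1 of the 8 windows, that of Ccng1 (chr10:25684827-25685126, minus strand), where it starts 215 bases before the start of the gene. Of all 33469 promoter windows, 8.59% held it. The window of Cdkn1a (chr20:7150682-7150981, plus strand) is shown beside it because Cdkn1a had the largest difference between the groups. Both run 5′ to 3′ along the strand of the gene, and the capitals mark the core.
Ccng1: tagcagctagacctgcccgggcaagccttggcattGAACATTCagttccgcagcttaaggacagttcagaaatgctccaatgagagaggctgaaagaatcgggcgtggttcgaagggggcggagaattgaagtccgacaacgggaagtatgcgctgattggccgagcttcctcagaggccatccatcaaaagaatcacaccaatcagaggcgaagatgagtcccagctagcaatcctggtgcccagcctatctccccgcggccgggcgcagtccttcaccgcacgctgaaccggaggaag
Cdkn1a: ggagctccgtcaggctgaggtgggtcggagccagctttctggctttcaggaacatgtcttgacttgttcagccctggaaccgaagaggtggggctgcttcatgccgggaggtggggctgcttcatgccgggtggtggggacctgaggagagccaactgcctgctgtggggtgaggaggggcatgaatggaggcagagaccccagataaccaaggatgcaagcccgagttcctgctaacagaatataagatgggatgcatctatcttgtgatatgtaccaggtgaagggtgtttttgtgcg

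The values are the log2 processed signal of the scanner after the 75th percentile of its array was subtracted, so that 0 is the 75th percentile and 1 is a doubling. The 75th percentile was 415 to 430 on the arrays labelled control and 1458 to 1558 on those labelled S3d. All 12 probes were well above background on all 6 arrays, and none was saturated. Each group had its own slide, with 450 days between the scans of the 2 slides, and the effects of slide, scan and group therefore cannot be told apart. Each column of the authors' normalized table matched a scanner file labelled with the opposite group and an equal replicate number (rho by Spearman of 1.000, against 0.942 to 0.952 for the file of its own label). The directions below follow the labels of the scanner files, with a positive difference for a higher level in S3d. They oppose the directions of the normalized table and those the study gives. The paper also reports RT-PCR, on other genes, with directions that followed its array values. Which labels are correct was not tested, so all directions below may be inverted, and no sample was reassigned.

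The tissue label was checked first. The 9 enterocyte markers with a tested probe, among them Fabp1 and Apoa4, were well above background on all 6 arrays. Their summed signal, in units of the 75th percentile, was 3399 to 3785 on the arrays labelled control and 1419 to 1458 on those labelled S3d, with 8 of the 9 genes lower and 1 higher. The summed signal of 5 markers of the proliferating crypt was 18.9 to 19.4 and 27.4 to 28.6, with 4 genes higher and 1 lower. Olfm4 had by far the largest log2 fold change of these (2.87), against a median of 0.38. Ccna2 was lower (-0.56), although its dimmer probe was higher (0.56). The summed signal of 3 goblet cell markers was 797 to 802 and 225 to 237, with all 3 lower. In whole tissue, fewer cells of a type and less RNA per cell cannot be told apart. The part of these shifts in the values of the 8 genes was not tested.

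The array labelled S3d 1 stood apart by its signal for digestive enzymes of the pancreas. The summed signal of 4 pancreas markers was 881 there, against 0.545 and 1.95 on S3d 2 and 3 and 0.274 to 0.586 on the arrays labelled control. Without this array, 6 of the 8 genes were called, as with it, and no member changed its call or its sign. The plot of marker sums shows each list on each array.

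**Figure D1:**
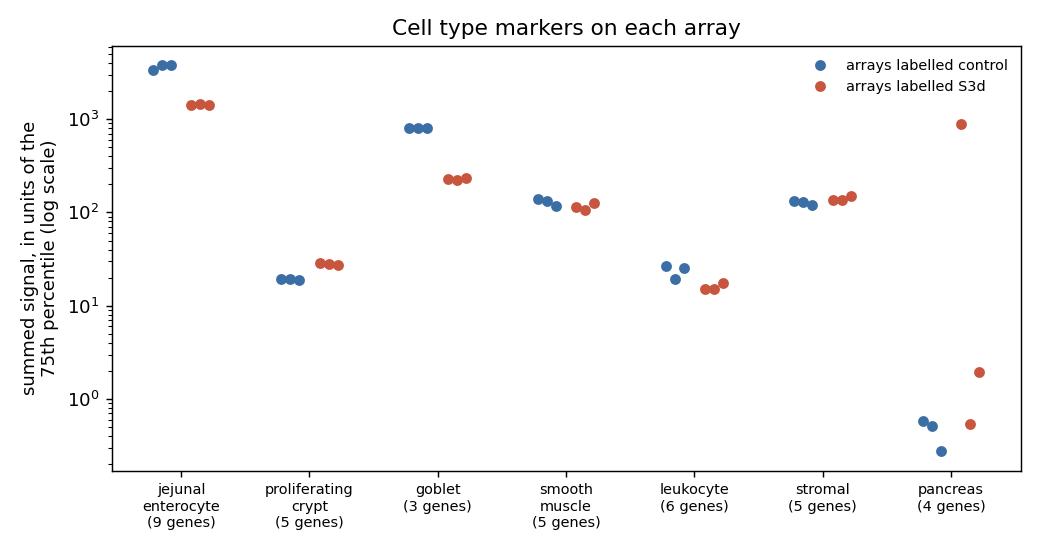
Summed signal of 7 cell type marker lists on each array (y axis, log scale, in units of the 75th percentile of the array). Points are single arrays. Enterocyte and goblet sums are lower and crypt sums higher on the 3 arrays labelled S3d, and the pancreas sum is high on S3d 1 alone.

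At an adjusted p under 0.05 (limma, Benjamini-Hochberg over all 31367 tested probes), 6 of the 8 genes were called on their brightest probe. Ccng1, Gadd45a, Phlda3 and Fas were higher on the arrays labelled S3d, and Cdkn1a and Perp were lower. Mdm2 and Sesn2 were not called. Of all 11489 named genes tested, 73.5% were called, 36.1% higher and 37.4% lower, so that the share of called members lay near that of all genes. The groups did not overlap for 7 of the 8 genes and for 78.3% of all genes. The study names a threshold beside its down-regulated genes (fold change of 1.5 or more with p under 0.01), and its own list also holds genes outside it. At this value with an unadjusted p, called the study's threshold here, 5 of the 8 genes passed, as did 47.1% of all named genes. Of all tested probes, 52.5% passed an adjusted p under 0.05 with a fold change of at least 1.5, and these are called changed probes here. The median log2 fold change was 0.05 over the 8 genes, between -1.91 and 0.67, and 0.00 over all genes tested.

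Mdm2, Cdkn1a, Ccng1 and Fas each had 2 tested probes. Both probes of a gene gave the same sign for all 4 genes. Both probes were called for Cdkn1a and Ccng1, and 1 of the 2 for Mdm2 and Fas. Of 2597 transcripts with at least 2 tested probes, the 2 brightest were both called for 1495, and these went opposite ways for 476, or 31.8%. The difference between the 2 probes of a gene within an array does not depend on the scaling. Its shift between the groups had an exact two-sided permutation p of 0.1 for Cdkn1a (-0.80), Fas (0.51) and Mdm2 (0.27), the smallest that 3 against 3 arrays can give (0.133 after adjustment over the 4 genes), and of 0.5 for Ccng1 (-0.30).

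Mdm2, a ubiquitin ligase that limits the stress response, was not called on its brighter probe. The arrays labelled control were at 1.05, 1.03 and 1.07, and those labelled S3d at 0.78, 0.96 and 0.95. The groups did not overlap, although S3d 1 lay apart from the other two. Its log2 fold change was -0.16 (SE 0.0733, 95% interval -0.34 to 0.02, adjusted p = 0.0965 by limma), and -0.098 without S3d 1. The dimmer probe was at -0.36, -0.53 and -0.52 on the arrays labelled control and at -0.90, -0.89 and -0.89 on those labelled S3d, without overlap, and was called (log2 fold change -0.43, SE 0.0711, adjusted p = 0.00213 by limma). Both probes of Mdm2 gave a negative value, and only the dimmer one passed the test.

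Cdkn1a encodes p21, an inhibitor of cyclin-dependent kinases and a main effector of growth arrest. Its brighter probe was at 4.96, 5.03 and 5.01 on the arrays labelled control and at 3.19, 2.96 and 3.11 on those labelled S3d. The groups lay far apart beside a spread within each group of at most 0.12 (SD, n = 3). The log2 fold change was -1.91 (SE 0.0803, adjusted p = 1.53e-05 by limma), which corresponds to a level 3.77-fold lower. It was the largest difference among the 8 genes, and 2.21% of all genes tested had a lower value. The dimmer probe also fell, from between -1.58 and -1.30 to -2.56, -2.54 and -2.62 (log2 fold change -1.11, SE 0.0897, adjusted p = 0.000101 by limma).

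Ccng1 encodes cyclin G1, which is reported to act on Mdm2. Its brighter probe was at 1.35, 1.41 and 1.26 on the arrays labelled control and at 2.16, 1.91 and 1.84 on those labelled S3d. The groups did not overlap, and the log2 fold change was 0.63 (SE 0.103, adjusted p = 0.00195 by limma). The dimmer probe was at 0.19, -0.39 and 0.18, and at 1.04, 1.08 and 0.66, and varied more within each group. Its log2 fold change was 0.93 (SE 0.200, adjusted p = 0.00624 by limma), in the same direction.

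Gadd45a encodes a stress-induced protein that binds PCNA and takes part in growth arrest and DNA repair. Its single probe was at 2.19, 2.37 and 2.26 on the arrays labelled control and at 2.93, 2.92 and 2.84 on those labelled S3d, without overlap. Its difference was 0.62 on the log2 scale (SE 0.0743, adjusted p = 0.000499 by limma). Thus, of the 3 arrest genes, Ccng1 and Gadd45a were higher and Cdkn1a was lower.

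**Figure D2:**
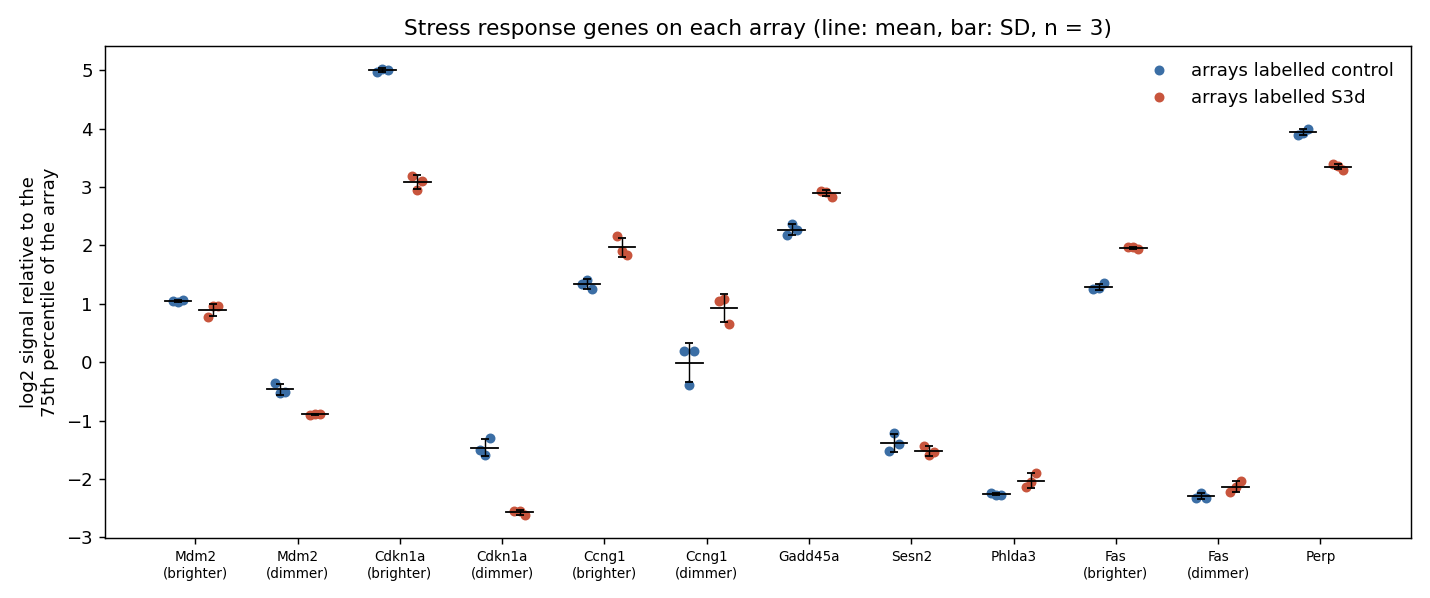
Level of each of the 12 probes (x axis) on each array (y axis, log2 signal relative to the 75th percentile of the array). Points are arrays, horizontal lines the mean and bars the SD (n = 3). The brighter probe of Cdkn1a shows the widest gap, from 4.96 to 5.03 down to 2.96 to 3.19, and both probes of Mdm2, Cdkn1a, Ccng1 and Fas move in the same direction.

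Sesn2 encodes sestrin 2, which restrains mTORC1 signalling under stress. It was at -1.52, -1.22 and -1.40 on the arrays labelled control and at -1.43, -1.59 and -1.53 on those labelled S3d. It was the one gene of the 8 whose groups overlapped, and it was not called (log2 fold change -0.14, SE 0.0977, 95% interval -0.38 to 0.10, adjusted p = 0.242 by limma). Its value was -0.057 without control 2 and -0.21 without control 1, again without a call. Phlda3, an inhibitor of Akt signalling, was at -2.24, -2.27 and -2.27 and at -2.14, -2.05 and -1.90. Its values did not overlap, and it had the smallest difference among the called genes (log2 fold change 0.23, SE 0.0798, adjusted p = 0.0380 by limma). The call of Phlda3 was lost when any array other than S3d 1 was left out, with log2 fold changes of 0.17 to 0.24 and adjusted p between 0.0702 and 0.0966. It was also not called with quantile normalization (0.09, adjusted p = 0.346 by limma). Its sign turned with normexp background correction (-0.062 with flagged local backgrounds replaced).

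Among the death genes, Fas, a receptor of the cell surface that starts the extrinsic pathway, was higher. Its brighter probe was at 1.26, 1.27 and 1.35 on the arrays labelled control and at 1.98, 1.97 and 1.94 on those labelled S3d. The arrays of each group lay close together, and the log2 fold change was 0.67 (SE 0.0601, adjusted p = 0.000151 by limma). Its dimmer probe was at -2.33, -2.24 and -2.33 and at -2.22, -2.14 and -2.04, without overlap, but it was not called (log2 fold change 0.16, SE 0.0740, adjusted p = 0.0869 by limma). The mean over both probes was 0.42.

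Perp, a membrane protein of desmosomes that also takes part in cell death, was lower. It was at 3.90, 3.92 and 3.99 on the arrays labelled control and at 3.39, 3.36 and 3.30 on those labelled S3d. The groups did not overlap (log2 fold change -0.59, SE 0.0632, adjusted p = 0.000317 by limma). With quantile normalization its value was -0.25. With the planned normexp background correction it was -0.003 and not called (adjusted p = 0.996 by limma). With flagged local backgrounds replaced it was -0.42 (adjusted p = 0.000265 by limma). Thus, of the 2 death genes, Fas was higher and Perp lower.

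With the 75th percentile scaling, brightness moved with the direction of the fold change. When all named genes were put in 5 classes of equal size by mean signal, the median log2 fold change ran from 0.70 in the dimmest class through 0.17, -0.00 and -0.10 to -0.45 in the brightest. Cdkn1a, Perp and Gadd45a lay in the brightest class, where 26.0% of genes had a positive value. Gadd45a (0.62) was higher there, against the median of its class, Cdkn1a (-1.91) lay below that median, and Perp (-0.59) lay near it. Mdm2 (-0.16), Ccng1 (0.63) and Fas (0.67) lay in class 4, counted from the dimmest. Sesn2 (-0.14) and Phlda3 (0.23) lay in class 2, and Phlda3 was near the median of that class. The trend depends on the processing. With the planned normexp background correction it ran the other way, from -1.59 in the dimmest class to 0.23 and 0.09 in the 2 brightest. On control 3, however, some local backgrounds reached 54705, and the corrected 5th percentile was 920, against 8.62 to 16.4 elsewhere. With quantile normalization the medians were 0.26 in the dimmest class and -0.02 in the brightest. With flagged local backgrounds replaced before normexp, they ran -0.81, -0.29, -0.05, -0.01 and -0.32 from the dimmest to the brightest. The part of brightness in the values of the members was not tested.

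The normalized table of the authors gave every member the opposite sign by its own labels. There the log2 fold change was 1.56 for Cdkn1a, -0.82 for Gadd45a, -0.76 for Fas and -0.72 for Ccng1. Perp was at 0.26, so that its difference was smaller there than in the scanner files, and Phlda3, at -0.10, was not called.

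**Figure D3:**
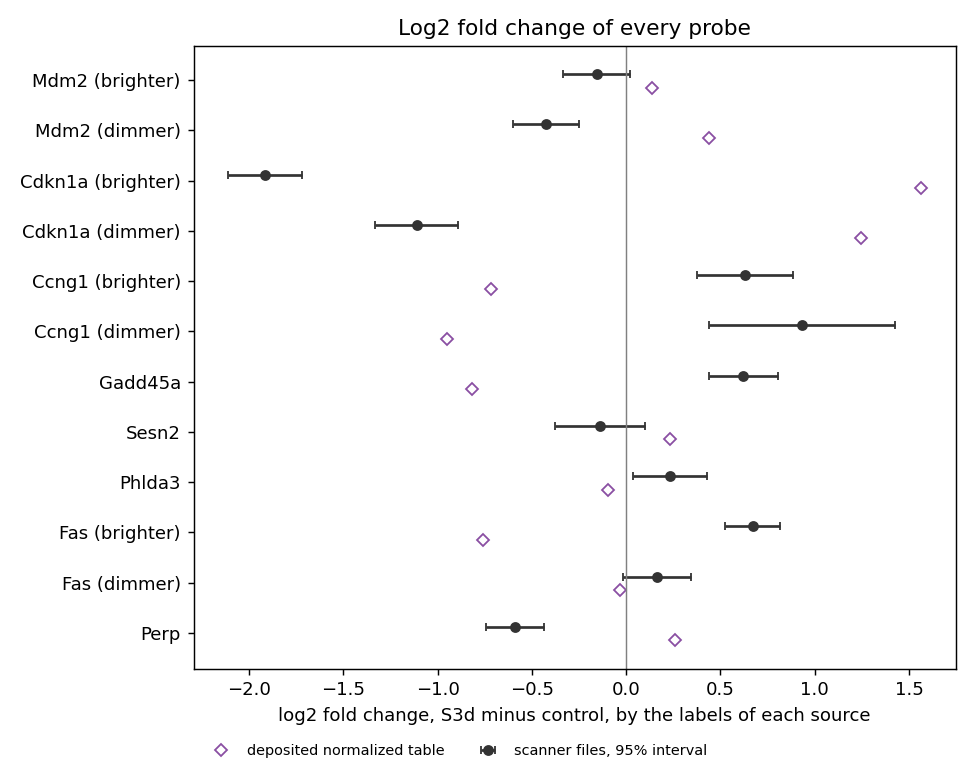
Log2 fold change (x axis) of each of the 12 probes (y axis), S3d minus control. Circles are the scanner files with the 95% interval of limma, and diamonds are the authors' normalized table by its own labels. Each diamond lies on the other side of 0 from its circle.

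The scaling of the arrays also bears on the directions, since the raw signals of the arrays labelled S3d were higher for most probes. Without scaling, 28565 probes were changed with a higher level and 335 with a lower one. The raw signal of the brighter Cdkn1a probe was 12954, 13942 and 13887 on control, and 13343, 12103 and 13484 on S3d. With 75th percentile scaling, 4 members were called higher and 2 lower. Quantile normalization gave 3 and 2, median centring 3 and 4, and no scaling 7 and 0. The planned normexp background correction gave 0 and 0, and with flagged local backgrounds replaced it gave 3 and 4. Without scaling, the median log2 fold change of all named genes was 1.85. Ccng1, Gadd45a, Fas and Phlda3 lay above that median, and Mdm2, Cdkn1a, Sesn2 and Perp below it, since scaling moves all genes of an array by the same amount. Median centring added Mdm2 (-0.33) and Sesn2 (-0.31) to the lower genes and took away Phlda3 (0.06).

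**Figure D4:**
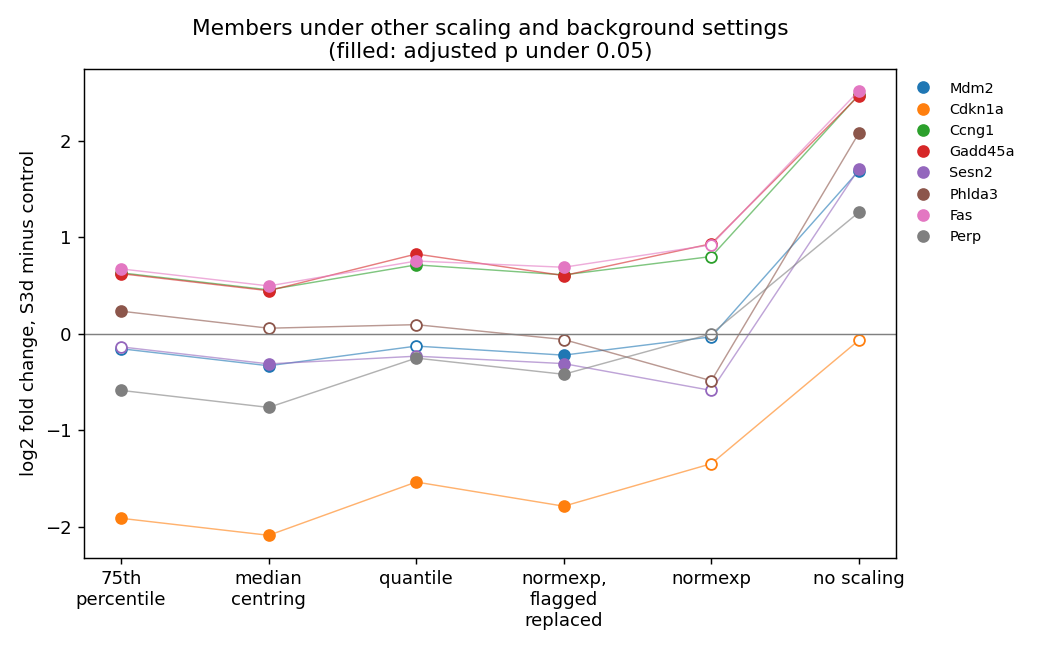
Log2 fold change (y axis, S3d minus control) of the 8 genes under 6 settings of scaling and background correction (x axis). Filled points passed an adjusted p under 0.05. Cdkn1a is the lowest gene under every setting drawn, and without scaling all genes but Cdkn1a lie above 0.

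The rest of the pathway was read from 5 lists of 69 genes in all. Of these, 53 had a probe by accession, 52 were tested and 45 were called, 21 of them with a higher and 24 with a lower level in S3d. The median log2 fold change over the 52 genes was -0.14. The share called is again to be read beside the 73.5% of all named genes. The balance moved with the processing, to 13 higher and 25 lower under median centring and 47 and 0 without scaling. It was 0 and 2 with the planned normexp background correction, and 15 and 31 with flagged local backgrounds replaced.

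All 10 tested regulators of the pathway were called, 6 higher and 4 lower, with a median of 0.66. Rchy1, a ubiquitin ligase, was at -2.96, -2.64 and -2.50 on the arrays labelled control and at 0.00, 0.17 and 0.04 on those labelled S3d. With a log2 fold change of 2.77, its difference was the largest of the wider lists (SE 0.132, adjusted p = 1.98e-05 by limma). Usp7, a deubiquitinase of Mdm2, fell from 3.32, 3.30 and 3.31 to 2.21, 2.14 and 2.25 (log2 fold change -1.11, SE 0.0604, adjusted p = 2.67e-05 by limma). A dimmer probe of Usp7 gave -0.23 (adjusted p = 0.0345 by limma), and the mean over its probes -0.67. Mdm4, the partner of Mdm2, was higher, with a log2 fold change of 0.67 (SE 0.0755, adjusted p = 0.000399 by limma).

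Of 10 tested arrest and repair genes, 2 were higher, 5 lower and 3 not called, with a median of -0.48. Xpc, which recognises damage in nucleotide excision repair, was between -1.0 and -0.92 on the arrays labelled control and at -2.66, -2.65 and -2.50 on those labelled S3d. It fell by 1.64 on the log2 scale (SE 0.0727, adjusted p = 1.69e-05 by limma). Rrm2b, the ribonucleotide reductase subunit that is raised by DNA damage, was at -4.59, -4.78 and -4.44 and at -3.54, -3.67 and -3.57, a log2 fold change of 1.01 (SE 0.103, adjusted p = 0.000252 by limma). It is a dim probe, its value was 0.65 with quantile normalization, and its sign turned with normexp background correction. With flagged local backgrounds replaced it was called lower (-0.49, adjusted p = 0.000337 by limma), so its direction depends on the processing. Pcna is counted in this list and among the crypt markers.

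Of 12 tested death genes, 7 were higher, 4 lower and 1 not called, with a median of 0.23. Bax, which permeabilises the outer membrane of mitochondria, was at -2.02, -1.03 and -2.10 on the arrays labelled control and at 0.75, 0.70 and 0.72 on those labelled S3d. Control 2 lay above the other control arrays, and the log2 fold change was 2.44 (SE 0.288, adjusted p = 0.000473 by limma). Apaf1, the scaffold of the apoptosome, fell from 1.68, 1.62 and 1.59 to 0.17, 0.17 and 0.41 (log2 fold change -1.38, SE 0.0887, adjusted p = 4.46e-05 by limma). Bbc3, which encodes the BH3-only protein Puma, was called at 0.28 (SE 0.0990, adjusted p = 0.0414 by limma). The call of Bbc3 was lost when any array other than control 3 was left out, with log2 fold changes of 0.20 to 0.30. It was also lost under median centring (0.10), without a filter on dim probes and with the methods' analysis of variance. Pmaip1 (Noxa) had no probe by accession.

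Of 13 tested metabolic and stress genes, 3 were higher, 7 lower and 3 not called, with a median of -0.36. Gls2, a mitochondrial glutaminase, was at -1.07, -0.97 and -1.03 on the arrays labelled control and at 0.77, -0.41 and -0.53 on those labelled S3d. The array with the pancreatic signal, S3d 1, lay far above the other two. The log2 fold change was 0.97 (SE 0.344, adjusted p = 0.0425 by limma) and 0.56 without S3d 1 (adjusted p = 0.00199 by limma). Its call was lost without control 1, 2 or 3, where the log2 fold change was 0.94, 0.99 and 0.96, and also under median centring (0.79), without a filter on dim probes and with the methods' analysis of variance. Fdxr, the mitochondrial ferredoxin reductase, was lower, with a log2 fold change of -0.95 (SE 0.0939, adjusted p = 0.00022 by limma).

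The 7 tested cell cycle genes, which fall in arrested cells, were all called, 3 higher and 4 lower, with a median of -0.53. Ccnb2, a cyclin of mitosis, was at 0.90, 0.90 and 0.89 on the arrays labelled control and at 1.90, 1.83 and 1.90 on those labelled S3d (log2 fold change 0.98, SE 0.0573, adjusted p = 3.32e-05 by limma). Birc5, which encodes survivin, was at 2.35, 2.03 and 2.14 and at 0.36, 0.91 and 1.12, and fell by 1.38 on the log2 scale (SE 0.208, adjusted p = 0.00137 by limma). The genes of this list, like the members, did not move one way.

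**Figure D5:**
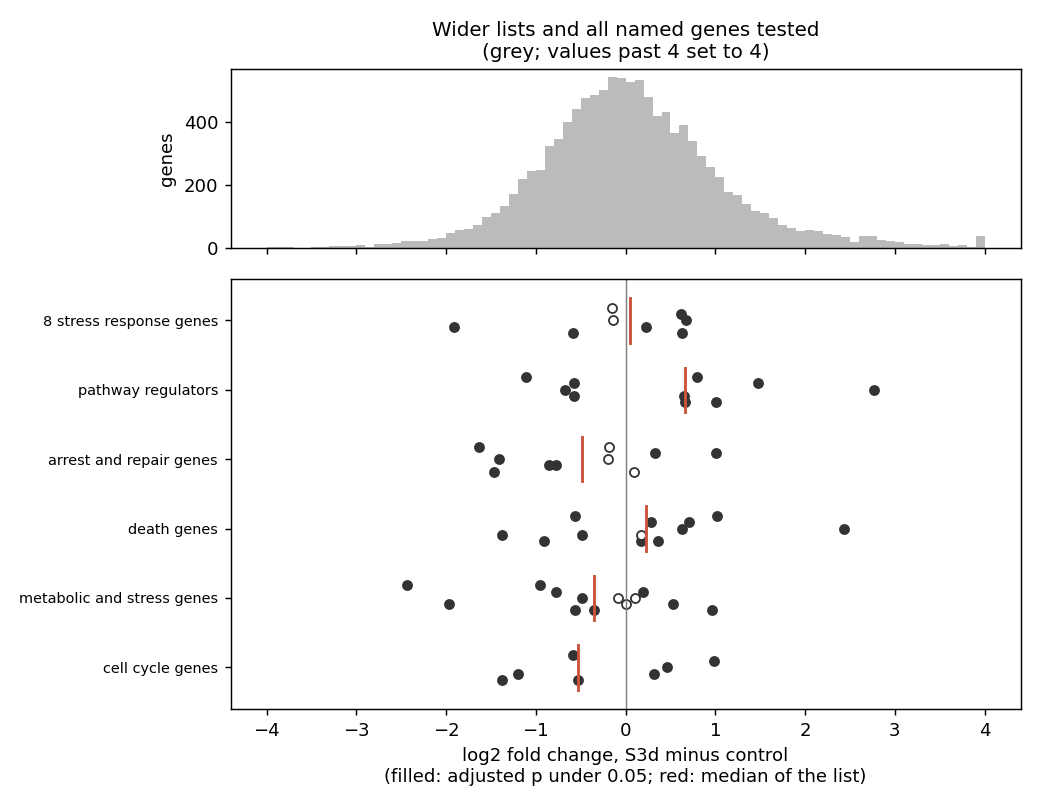
Log2 fold change (x axis, S3d minus control) of the 8 genes and of the 5 wider lists (lower panel) under the distribution of all 11489 named genes tested (upper panel). Filled points passed an adjusted p under 0.05, open points did not, and red lines are the medians of the lists, from -0.53 for the cell cycle genes to 0.66 for the regulators. Each list holds genes on both sides of 0.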

How the data were processed

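One-colour Agilent rat arrays of 6 jejunum samples, 3 control and 3 S3d, were analysed. For each array the authors deposited the spot intensities that Agilent Feature Extraction 10.7.3.1 gave, per the file headers. The processed signal among them is background-corrected and had no normalization across arrays. A table of log2 values was deposited as well. Its columns appeared to be quantile-normalized, with log2 fold changes close in size to those of quantile normalization here (1.56 against -1.54 for Cdkn1a). The program is not given in the sources used here. The sources name no array normalization, and the methods name an analysis of variance.

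Control spots and outlier spots were left out, repeated spots averaged, and log2 processed signals scaled to the 75th percentile of the array. A probe was tested if every array of 1 or both groups had it well above background (31367 of 41012). The group comparison used lmFit and eBayes of limma 3.58.1 (R 4.3.3) without a block, with Benjamini-Hochberg adjustment over all tested probes. A gene is represented by its brightest probe and called at an adjusted p under 0.05. Probes were named by RefSeq accession (GRCr8 table, names only), which gave 17512 probes a symbol. The test was checked on simulated data. Figures were drawn with matplotlib 3.10.9.

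Other genes of the list the members come from are not reported here. The members and lists were chosen with earlier results of these data known. Named genes outside the members were, per list, the largest called rise and fall among genes well above background on all 6 arrays without overlap, plus Mdm4, Bax, Bbc3 and Pmaip1. The marker lists were jejunal enterocyte, proliferating crypt, goblet, smooth muscle, leukocyte, stromal and pancreas. The smooth muscle list had 1 gene higher and 2 lower of 5, the leukocyte list 1 and 5 of 6, the stromal list 2 and 2 of 5, and the pancreas list none of 4. The alternatives tried were median centring, quantile normalization, no scaling, normexp background correction, other filters, outlier spots kept, the deposited table, the replicate number as a block, the methods' analysis of variance, the mean over probes, the study's threshold, and each array left out. Normexp was run on the median signal, since the files give no mean signal. The number of arrays limits the precision.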

Additional observations from a re-analysis of the deposited data

How the results depend on the processing

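Of the 20 single-gene log2 fold changes followed through the alternatives (8 members and 12 genes of the wider lists), all kept their direction and call with outlier spots kept and with probes well above background on all 6 arrays. By the labels of the deposited normalized table, all 20 reversed: Mdm2 0.14, Cdkn1a 1.56, Ccng1 -0.72, Gadd45a -0.82, Sesn2 0.23, Phlda3 -0.10, Fas -0.76, Perp 0.26, Rchy1 -2.69, Usp7 0.90, Rrm2b -0.63, Xpc 1.74, Bax -2.41, Apaf1 1.33, Gls2 -0.95, Fdxr 0.90, Ccnb2 -1.05, Birc5 1.29, Mdm4 -0.61 and Bbc3 -0.31, since its columns follow the files of the other group. Without scaling, where 28900 probes were changed against 16452, Mdm2 (1.69), Sesn2 (1.71), Perp (1.26), Usp7 (0.73), Xpc (0.21), Apaf1 (0.47), Fdxr (0.89) and Birc5 (0.47) reversed, and Cdkn1a (-0.07) lost its call. With the planned normexp correction 1752 probes were changed, with 0 of the 8 members, 2 genes of the wider lists and 3 markers called, and Phlda3 (-0.49) and Rrm2b (-1.25) reversed. On control 3 some local backgrounds reached 54705, against at most 117 on the other arrays, and after this correction its 5th percentile of signal was 920, against 8.62 to 16.4 elsewhere. An alternative chosen after seeing the data replaced the flagged local backgrounds by the median of the array. It gave 16149 changed probes and 7 members called, with Phlda3 (-0.062) and Rrm2b (-0.49) reversed, and added Mdm2 (-0.22) and Sesn2 (-0.31). At the study's threshold 28 genes of the wider lists and 17 markers passed, against 45 and 30. Phlda3 lost its call under quantile normalization, and Phlda3, Gls2 and Bbc3 lost theirs under median centring (0.06, 0.79 and 0.10) and without a filter. Gls2 and Bbc3 also lost theirs under the methods' analysis of variance, and the mean over probes added Mdm2 (-0.29). With each array left out, 15984 to 16455 probes were changed, and 5 to 6 members, 40 to 41 genes of the wider lists and 26 to 29 markers were called. The replicate numbers do not pair the arrays (correlations of 0.02, 0.02 and -0.05 between deviations). With the number as a block, 16314 probes were changed, 5 members, 41 genes of the wider lists and 28 markers were called, and Phlda3 and Gls2 lost their calls. The slide as a block could not be fitted, since no slide holds both groups.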
